A study of Homo sapiens with 4 samples.

Results

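Replication-dependent histone genes were taken from the RNA immunoprecipitation libraries by symbol, as H1-1 to H1-6 and as H2AC, H2BC, H3C or H4C followed by a number, with pseudogenes left out. The rule found 66 genes among the 44715 symbols of each table, of which 34 were above 0 in at least 1 library. RNA was recovered from native lysates of HEK293T, a widely used cell line from human embryonic kidney that carries SV40 large T antigen. The anti-PHGDH group (2 libraries) was precipitated with an antibody against PHGDH, the enzyme of the first step of serine synthesis, and the IgG group (2 libraries) with the control named anti-IgG antibody in the labels. All 4 libraries came from the same cell line, with no treatment of the cells named, and the series describes the 2 of each group as biological replicates. The comparison asked which RNAs were recovered with PHGDH beyond the control, and no library of input RNA was analysed here.

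Replication-dependent histone genes supply the bulk of the core histones H2A, H2B, H3 and H4 and of linker histone H1 while DNA is copied. Their genes lie in clusters, lack introns and give mRNAs that end in a conserved stem-loop in place of a poly(A) tail. The stem-loop is bound by SLBP, and U7 snRNA with a cleavage complex trims the transcript just after it. Some of these genes also give polyadenylated transcripts, mostly outside S phase and in differentiated cells.

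Values are CPM, that is, reads of a gene scaled to a fixed total of reads assigned to genes in each library, and every value of the 66 genes was a whole number of reads. The libraries held from 1216477 reads (anti-PHGDH replicate 2) to 3875746 reads (IgG replicate 1). IgG replicate 1 stood apart: it had 4148 genes above 0, or 9.28% of the symbols, against 32.5 to 37.5% in the other libraries. The tests, their medians and the summed levels are therefore also given without it. Of 7 genes listed as markers of the HEK293T line, all 7 were above 0 in the other 3 libraries and 4 in IgG replicate 1, where KRT8, LIN28B and PAX2 were at 0. Of 5 markers of other cell types, PTPRC, HBB, COL1A2 and PECAM1 were at 0 throughout, and ALB had 1 read (0.297 CPM) in anti-PHGDH replicate 1.

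Reads fell on 34 of the 66 histone genes, and the linker, H2A and H2B genes gave more than the H3 genes outside IgG replicate 1. Above 0 in any library were 3 of 6 H1 genes, 10 of 16 H2A genes, 9 of 17 H2B genes, 6 of 13 H3 genes and 6 of 14 H4 genes. The remaining 32 genes were at 0 in every library. By library, 28 of the 66 genes were above 0 in anti-PHGDH replicate 1 (42.4%), 23 in anti-PHGDH replicate 2 (34.8%), 24 in IgG replicate 2 (36.4%) and 2 in IgG replicate 1 (3.03%). The same shares over all symbols were 37.5, 32.5, 33.1 and 9.28%. In IgG replicate 1 the share of histone genes was lower than that of all symbols, and the difference between these shares was not tested. Exactly 18 genes were above 0 in at least 3 libraries, 5 in 2 libraries and 11 in a single library. Only H4C3 and H3C10 were above 0 in all 4 libraries.

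**Figure D1:**
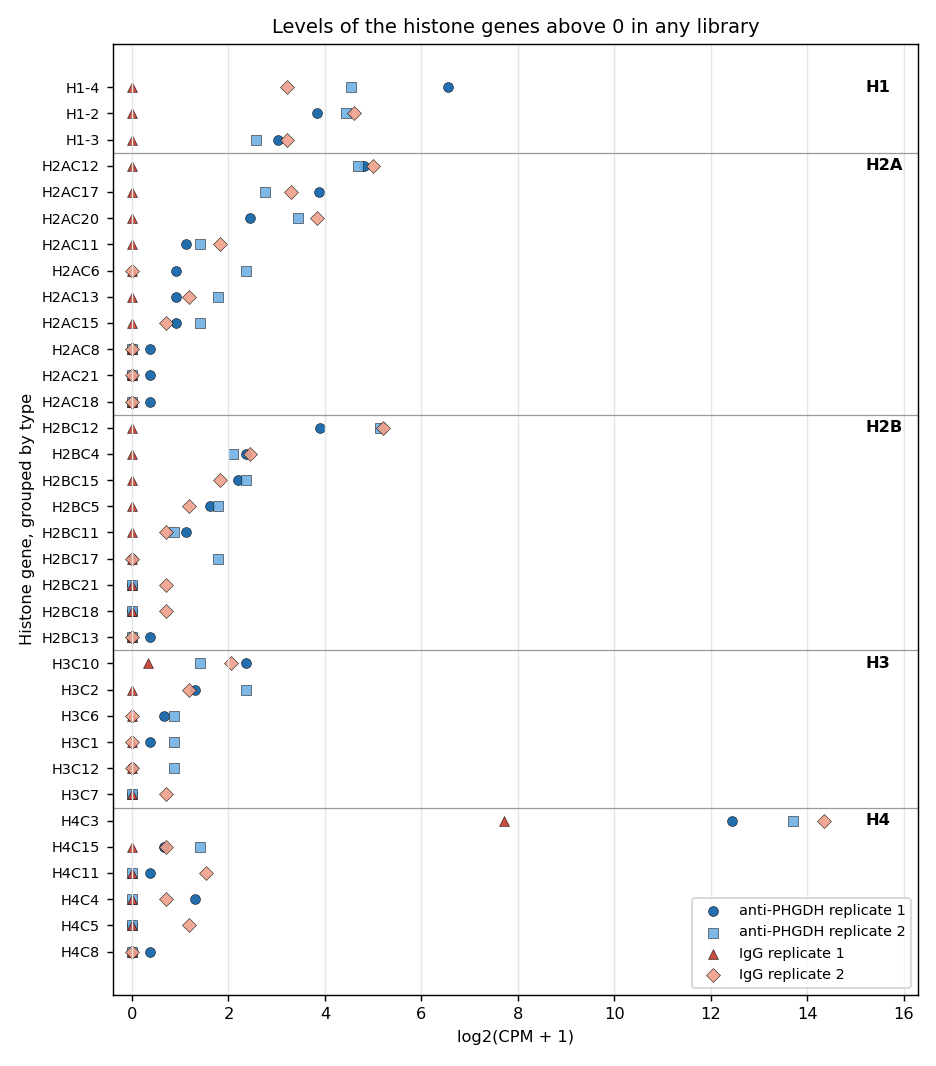
Level of each of the 34 histone genes above 0 in any library, as log2(CPM + 1), with 1 symbol per library and genes grouped by histone type. H4C3 lies far to the right of every other gene in all 4 libraries, and the triangles of IgG replicate 1 lie at 0 for all genes but H4C3 and H3C10.

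A single gene, H4C3, carried nearly all histone reads. H4C3 encodes histone H4, a core histone whose protein sequence is shared by most H4 genes. Over the 4 libraries it took 68386 of 69482 histone reads (98.4%), and the other 65 genes took 1096. Anti-PHGDH replicate 1 had H4C3 at 5504 CPM (18527 reads) and anti-PHGDH replicate 2 at 13309 CPM (16190 reads). The IgG values were 209 CPM in replicate 1 (809 reads) and 20805 CPM in replicate 2 (32860 reads). Both anti-PHGDH values lay between the IgG values, so the groups overlapped. The highest and the lowest value both came from the control antibody, and IgG replicate 2 exceeded IgG replicate 1 by 99.7-fold. The anti-PHGDH replicates differed 2.42-fold. The mean was 9407 ± 5519 CPM for the anti-PHGDH libraries, against 10507 ± 14564 CPM for the IgG libraries (SD, n = 2 each).

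Ranked among all genes, H4C3 was the most abundant entry of IgG replicate 2. It ranked 3 of 14518 genes above 0 in anti-PHGDH replicate 2 and 14 of 16767 in anti-PHGDH replicate 1. In IgG replicate 1 it ranked 1096 of 4148. Its place near the top was thus common to both antibodies and absent from 1 control library.

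H4C3 lies at chr6:26103933-26104337 in GRCh38.p14, a span of 405 bases with 1 RefSeq transcript. No other RefSeq gene overlaps it. Its nearest neighbours are H1-6, 3074 bases after its end, and HFE, 5589 bases before its start. H1-6, a testis-specific linker histone, was at 0 in every library, and HFE was above 0 only in anti-PHGDH replicate 2 (1.64 CPM). Neither neighbour thus showed reads at a level near that of H4C3. The map of the clusters on chromosome 6 shows the histone genes around it at far lower levels.

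**Figure D2:**
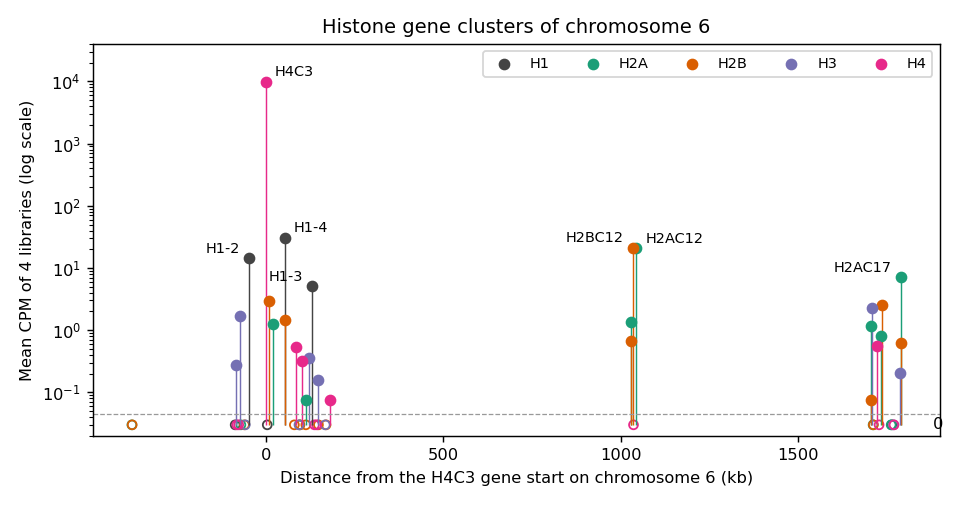
Mean CPM of the 4 libraries (log scale) for the 55 histone genes of chromosome 6 against distance in kb from the start of H4C3. Filled points are the 28 genes above 0, open points below the dashed line are genes at 0 in every library, and H4C3 stands alone at a mean of 9957 CPM.

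The share of histone reads that fell outside H4C3 was small in every library. In anti-PHGDH replicate 1 the share was 3.46% (3.21 to 3.73%, Wilson interval at 95%), and 1.15% (1.00 to 1.33%) in anti-PHGDH replicate 2. In IgG replicate 2 it was 0.731% (0.645 to 0.829%). IgG replicate 1 had 1 read outside H4C3 among 810, or 0.123% (0.0218 to 0.696%). These intervals cover counting error only, and that of IgG replicate 1 overlaps the interval of IgG replicate 2.

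Without H4C3, the summed level of the histone genes was similar in 3 libraries. The other 65 genes summed to 197 CPM (664 reads) in anti-PHGDH replicate 1, 155 CPM (189 reads) in anti-PHGDH replicate 2 and 153 CPM (242 reads) in IgG replicate 2. IgG replicate 1 was at 0.258 CPM. Of the 1096 reads outside H4C3, 85.0% fell on the next 7 genes, which are H1-4, H2AC12, H2BC12, H1-2, H2AC17, H2AC20 and H1-3.

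**Figure D3:**
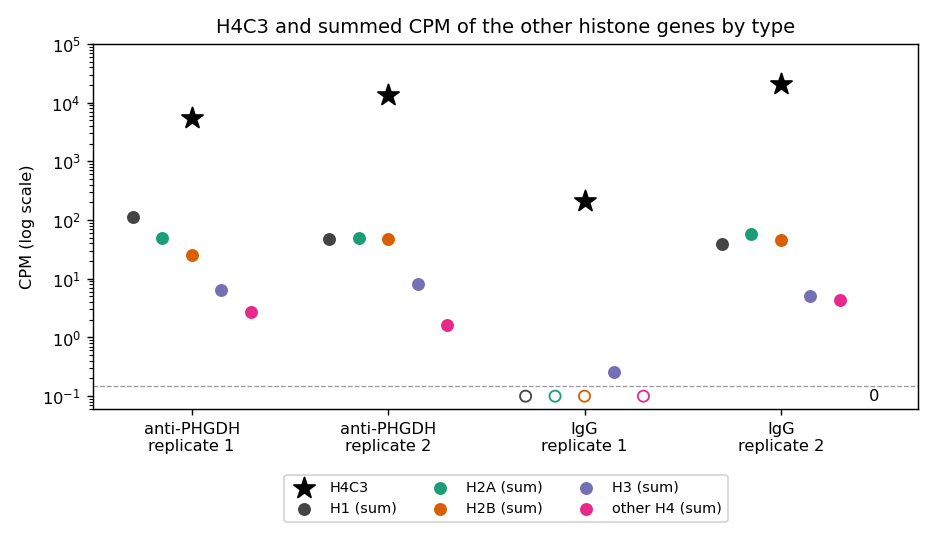
CPM of H4C3 (stars) and summed CPM of the other histone genes by type (circles) in each library, on a log scale, with open circles below the dashed line for sums of 0. H4C3 exceeds each summed type in all 4 libraries, and H1, H2A and H2B sums lie between 25.3 and 113 CPM outside IgG replicate 1.

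Among the H1 genes, which encode the linker histones that bind DNA between nucleosomes, H1-2, H1-3 and H1-4 were above 0 and H1-1, H1-5 and H1-6 were not. H1-4 stood at 92.4 CPM (311 reads) in anti-PHGDH replicate 1 and 22.2 CPM (27 reads) in anti-PHGDH replicate 2. It had no reads in IgG replicate 1 and 8.23 CPM (13 reads) in IgG replicate 2. Both anti-PHGDH values were above both IgG values, as in 38.3% of all genes tested. Anti-PHGDH replicate 1 was also 4.16 times as high as anti-PHGDH replicate 2, so the spread within the antibody was larger than the gap of 2.70-fold between the libraries numbered 2. Several histone genes too low to test, such as H2BC15, also had both anti-PHGDH values above both IgG values, on few reads. H1-2 stood at 13.4 and 20.6 CPM in the anti-PHGDH libraries, against 0 and 23.4 CPM in the IgG libraries. H1-3 stood at 7.13 and 4.93 CPM in the anti-PHGDH libraries, against 0 and 8.23 CPM in the IgG libraries. For both of these genes IgG replicate 2 was the highest library and IgG replicate 1 the lowest. H1 genes made up 57.2% of the histone reads outside H4C3 in anti-PHGDH replicate 1, 30.7% in anti-PHGDH replicate 2 and 26.0% in IgG replicate 2.

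The promoters of the H1 genes carry the H1 box (AAACACA), a short element of linker histone promoters. Promoters were taken from RefSeq (GRCh38.p14), which matched 61 of the 66 genes, and H2AC12, H3C11, H3C12, H4C1 and H4C3 had no entry. The 250 bases before each start were searched on both strands for this H1 box and for 3 further elements. These were the CCAAT box (spelled as in its name), the TATA box in the strict form TATAAA and the octamer of H2B promoters, which was searched as ATTTGCAT. The H1 box was in 6 of 6 H1 promoters, in 0 of the other 55 histone promoters and in 4.82% of all 35116 promoters. The CCAAT box, the site of the factor NF-Y, was in all 6 as well. The same letters were in the promoters of the 3 H1 genes at 0 in every library, so they did not separate genes with reads from genes without. The 150 bases before the starts of the 2 H1 genes with the highest mean level follow, in lower case, with matches to the H1 box, the CCAAT box and the TATA box on either strand in capitals; no marked match overlaps another. H1-4 is chr6:26156179-26156328 (plus strand) and H1-2 is chr6:26056471-26056620 (minus strand), each printed 5′ to 3′ toward its own start.
H1-4: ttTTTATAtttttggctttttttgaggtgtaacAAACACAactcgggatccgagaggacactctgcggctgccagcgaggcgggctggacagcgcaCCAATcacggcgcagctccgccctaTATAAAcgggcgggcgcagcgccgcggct
H1-2: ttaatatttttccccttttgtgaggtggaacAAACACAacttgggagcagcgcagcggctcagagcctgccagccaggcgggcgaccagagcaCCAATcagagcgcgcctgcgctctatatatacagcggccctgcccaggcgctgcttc
Both hold the H1 box and 1 CCAAT box in the same order, and the TATA box in its strict form was found before H1-4 but not in this window of H1-2. A match describes letters and is not shown to be a used site.

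Among the H2A genes, which encode core histones that pair with H2B, H2AC12, H2AC17 and H2AC20 had the most reads. H2AC12 stood at 27.0 and 24.7 CPM in the anti-PHGDH libraries, against 0 and 31.0 CPM in the IgG libraries. Outside IgG replicate 1 this gene was the most even of the 3, with the anti-PHGDH libraries at 25.8 ± 1.68 CPM (SD, n = 2). H2AC17 stood at 13.7 and 5.75 CPM in the anti-PHGDH libraries, against 0 and 8.86 CPM in the IgG libraries. H2AC20, on chromosome 1, stood at 4.46 and 9.87 CPM in the anti-PHGDH libraries, against 0 and 13.3 CPM in the IgG libraries. In all 3 genes the groups overlapped, with IgG replicate 1 lowest. The other 7 H2A genes above 0 had at most 5 reads in any library.

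Among the H2B genes, H2BC12 was the highest. It stood at 14.0 and 34.5 CPM in the anti-PHGDH libraries, on 47 and 42 reads, against 0 and 36.1 CPM in the IgG libraries (0 and 57 reads). Anti-PHGDH replicate 2 and IgG replicate 2 were thus close, and anti-PHGDH replicate 1 was lower than both. Its RefSeq span of 8566 bases, with 3 transcripts, is longer than that of most histone genes and contains H4C9, which was at 0 in every library. H2BC4, the next, stood at 4.16 and 3.29 CPM in the anti-PHGDH libraries, against 0 and 4.43 CPM in the IgG libraries. H2BC15 stood at 3.57 and 4.11 CPM in the anti-PHGDH libraries, against 0 and 2.53 CPM in the IgG libraries. H2BC4 and H2BC15 rest on 4 to 14 reads in each library where they were above 0.

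Many H2A and H2B genes are divergent pairs that start from opposite ends of a shared stretch of DNA. Among the genes with a promoter entry there were 10 such pairs with under 500 bases between the starts. Both genes were above 0 in any library in 6 pairs, 1 gene in 1 pair and neither in 3 pairs. Reads were often unequal within a pair. H2AC17 had 46 and 7 reads with anti-PHGDH, then 0 and 14 with IgG, while its partner H2BC17 had 3 reads in anti-PHGDH replicate 2 and 0 elsewhere. H2AC20 had 15 and 12 reads with anti-PHGDH, then 0 and 21 with IgG, while its partner H2BC21 had 1 read in IgG replicate 2 and 0 elsewhere. The stretches between these starts, with matches to the CCAAT box, the TATA box and the octamer on either strand in capitals, are chr6:27893186-27893424 and chr1:149886683-149886917, printed on the plus strand toward H2BC17 and H2AC20; no marked match overlaps another.
H2AC17 to H2BC17: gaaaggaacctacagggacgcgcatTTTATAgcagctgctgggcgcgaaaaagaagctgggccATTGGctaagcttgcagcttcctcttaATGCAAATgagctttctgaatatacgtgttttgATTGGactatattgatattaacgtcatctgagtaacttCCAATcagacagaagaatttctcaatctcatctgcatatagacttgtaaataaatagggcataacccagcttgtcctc
H2BC21 to H2AC20: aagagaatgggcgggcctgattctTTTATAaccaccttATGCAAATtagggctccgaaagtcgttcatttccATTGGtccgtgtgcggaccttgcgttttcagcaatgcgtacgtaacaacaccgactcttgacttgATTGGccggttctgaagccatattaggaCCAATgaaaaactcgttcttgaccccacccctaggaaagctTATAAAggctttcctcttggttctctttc
Each stretch holds 3 CCAAT boxes and 1 octamer, and a match to the TATA box lies near both starts in the second stretch but near only the H2AC17 start in the first. Across the matched promoters, the CCAAT box was in 15 of 15 H2A, 17 of 17 H2B, 11 of 11 H3 and 3 of 12 H4 promoters, against 32.0% of all promoters. The octamer, the site of OCT1, was in 11 of 15 H2A and 14 of 17 H2B promoters, in 1 of 11 H3 and 0 of 12 H4 promoters, and in 1.63% of all. It was in 12 of 31 promoters of histone genes above 0 and in 14 of 30 of those at 0 in every library. In a divergent pair the searched windows of both genes cover the stretch between the starts, so a match there counts for both. The H2A and H2B counts of the CCAAT box and the octamer are thus not independent.

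The H3 genes and the H4 genes other than H4C3 had few reads, with at most 5 per gene in any library apart from H3C10. H3C10 stood at 4.16 and 1.64 CPM in the anti-PHGDH libraries, on 14 and 2 reads, against 0.258 and 3.17 CPM in the IgG libraries (1 and 5 reads). The 13 H3 genes in sum stood at 6.54 and 8.22 CPM in the anti-PHGDH libraries, against 0.258 and 5.07 CPM in the IgG libraries. The 13 H4 genes other than H4C3 together had 9 and 2 reads with anti-PHGDH and 0 and 7 reads with IgG. H4C3 thus had nearly all the H4 reads of each library although it is 1 of 14 H4 genes. Per kilobase of RefSeq span, H4C3 was at 13591 CPM in anti-PHGDH replicate 1, where H1-4 was at 117 and H2AC12 at 59.2.

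Some histone genes are near-identical copies on chromosome 1, and their reads could be split or dropped in counting. These are H4C14 with H4C15, H3C14 with H3C15, and H2AC18 with H2AC19. H4C15 had 2 reads in each anti-PHGDH library, 0 in IgG replicate 1 and 1 in IgG replicate 2, and H2AC18 had 1 read in anti-PHGDH replicate 1. H4C14, H3C14, H3C15 and H2AC19 were at 0 in every library. How reads with several matches were treated is not given in the sources used here, so these values are uncertain. The choice by symbol also passes over H4-16, the symbol in these tables of a further H4 gene, which was above 0 only in anti-PHGDH replicate 1 (0.891 CPM).

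No histone gene differed between the antibodies past the threshold. The test was limma on log2(CPM + 1) over the 9524 genes that reached 5 CPM in 2 or more libraries, with Benjamini-Hochberg adjustment over all of them. That filter kept 8 of the 66 histone genes, and 58 were too low to test. Of the 8, 0 passed an adjusted p of 0.05 in either direction, against 0.0105% of all genes tested for higher and 0% for lower. At an unadjusted p under 0.05, limma had 1 of the 8 higher (H4C3) and 0 lower, against 2.74% and 0% of all genes tested. On the recovered reads, edgeR and DESeq2 also called 0 of the 8, and they called 0 of the 9524 genes in either direction, so these counts show nothing particular to the histone genes. Neither had any of the 8 at an unadjusted p under 0.05, against 0.22% higher and 1.7% lower of all genes in edgeR and 0.934% higher and 1.56% lower in DESeq2. The median log2 fold change of the 8 was 1.88, beside 1.92 over all genes tested. All 8 estimates were above 0, from 1.03 (H2AC20) to 3.94 (H1-4), on a scale where most genes tested were above 0 too. Of the 8 genes, 7 were at 0 in IgG replicate 1, as were 61.9% of all genes tested, so these estimates depend on the pseudocount. Without IgG replicate 1 the median of the 8 was -0.44, with 6 of 8 below 0 and none past the threshold (all genes 0.14, with 1.04% called higher and 0.0315% lower). In that fit 1 of the 8 was higher (H1-4) and 0 lower before adjustment (p under 0.05), against 7.39% and 0.777% of all genes tested. Without IgG replicate 2 all 8 were called higher, as were 74.9% of all genes tested (10.8% lower), with a median of 4.33, beside 3.60 over all genes. With 1 IgG library left, the spread in both of these fits comes from the anti-PHGDH pair, by way of the trend across genes. The lone IgG library is assumed to vary alike.

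**Figure D4:**
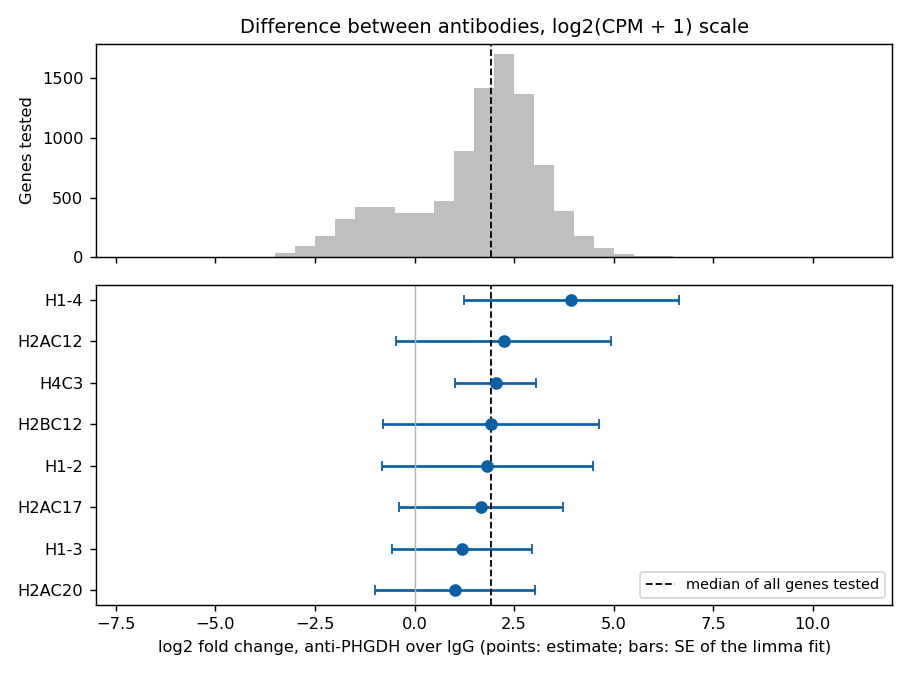
Upper panel, number of genes tested by log2 fold change of anti-PHGDH over IgG; lower panel, estimates of the 8 histone genes tested, with bars for the SE of the limma fit. The dashed line is the median of all genes tested (1.92), and it lies within the SE bar of each of the 8 genes.

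H4C3 had a log2 fold change of 2.03 (SE 1.01; limma unadjusted p = 0.044, adjusted p = 0.677). The SE follows the trend across genes, and the gene's own spread within groups was 3.38 on the log2 scale. Its sign depended on the scale: the mean CPM was lower with anti-PHGDH than with IgG, while the mean of log2 values was higher. It was below 0 without IgG replicate 1 (-1.28), after centring on library medians (-0.46), in edgeR (-0.33) and in DESeq2 (-0.12). Without IgG replicate 2, against the single IgG library that stood apart, it was 5.35. H1-4 had a log2 fold change of 3.94 (SE 2.70; limma adjusted p = 0.677) and was above 0 in each of the 17 alternative settings, from 1.44 to 5.64. With a single IgG library it was 2.33 (without IgG replicate 1) and 5.54 (without IgG replicate 2). All these settings reuse the same 4 libraries, and the shared sign adds no support to the difference. Where the groups do not overlap, leaving out 1 library cannot change the sign. H1-4 was the only one of the 8 genes whose groups did not overlap, and it was higher with anti-PHGDH. Among all genes tested, 38.3% had groups that did not overlap in that direction and 6.16% in the other.

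The direction of the difference depended on which IgG library was used. Both anti-PHGDH libraries had H4C3 above IgG replicate 1 and below IgG replicate 2. By number, both libraries numbered 2 had H4C3 above both numbered 1. Depth followed the number too, with 3365837 (anti-PHGDH) and 3875746 (IgG) reads for number 1. Number 2 had 1216477 (anti-PHGDH) and 1579430 (IgG) reads. The part of number or depth in these values was not tested. The shared numbers are not taken to pair the libraries, and those of the same number are set side by side only to show each library once. Between the libraries numbered 1, the level of H4C3 with anti-PHGDH was 26.4 times that with IgG (95% counting interval 24.6 to 28.3). Between those numbered 2, it was 0.640 times as high (0.628 to 0.652), which is 1.56 times as high with IgG. All 8 tested histone genes were higher with anti-PHGDH between the libraries numbered 1, where the median difference on the log2(CPM + 1) scale was 3.89, beside 3.62 over all genes tested, of which 80.6% were higher. Between the libraries numbered 2, 1 of the 8 was higher (H1-4), and the median was -0.36, beside 0.18 over all genes tested, of which 63.1% were higher. H1-4 there was 2.70 times as high with anti-PHGDH (1.34 to 5.69). For the other 6 genes the counting interval included equal levels. Their ratios ran from 0.599 (H1-3) to 0.957 (H2BC12). In sum, the 65 genes other than H4C3 were 1.01 times as high (0.834 to 1.23). In libraries numbered 1 the 7 genes at 0 with IgG were at least 5.76-fold (H2AC20) to at least 119-fold (H1-4) higher with anti-PHGDH, against a floor of 3 reads in IgG replicate 1. Intervals are exact (Clopper-Pearson) on the reads of 2 libraries, cover counting error only and compare those libraries, not the antibodies.

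**Figure D5:**
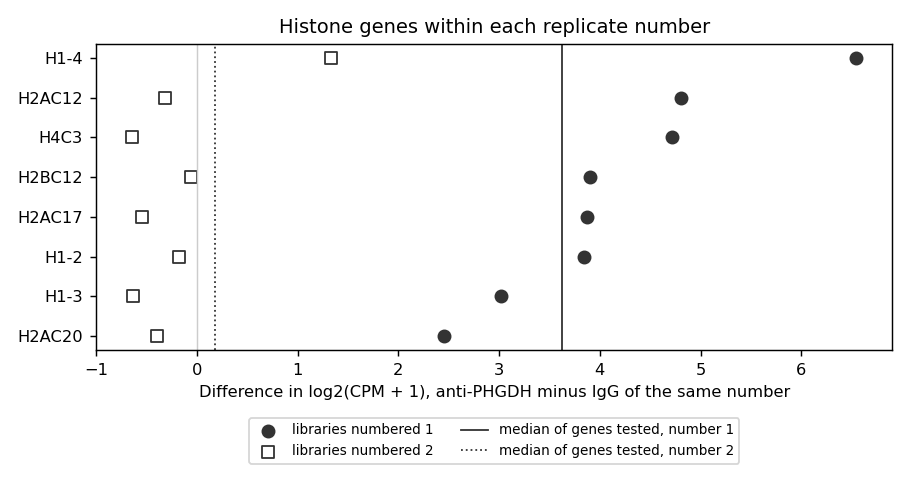
Difference in log2(CPM + 1), anti-PHGDH minus IgG, for the 8 histone genes tested, between the libraries numbered 1 (filled circles) and between those numbered 2 (open squares). All circles lie above 2 and all squares but that of H1-4 lie below 0; vertical lines give the medians of all genes tested (3.62 solid, 0.18 dotted).

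As a share of all reads, the 66 histone genes took 0.570% of anti-PHGDH replicate 1 and 1.35% of anti-PHGDH replicate 2. They took 0.0209% of IgG replicate 1 and 2.10% of IgG replicate 2. The anti-PHGDH values lay between the IgG values, and the log2 ratio of the group means was -0.14. Without IgG replicate 1 it was -1.13. With H4C3 left out the log2 ratio was 1.20, which rests on IgG replicate 1, and it was 0.20 without that library. An exact permutation test of 2 against 2 libraries cannot go below a two-sided p of 0.333, so no test of these sums was made. CPM are relative, and mitochondrially encoded genes took a large part of anti-PHGDH replicate 1. With those genes removed from the totals, the summed histone CPM was 8009 and 14746 with anti-PHGDH and 217 and 21689 with IgG, a log2 ratio of 0.05, and of -0.93 without IgG replicate 1. The libraries are immunoprecipitates from lysates of many cells, so the number of cells with histone mRNA, the mRNA per cell and its recovery cannot be told apart.

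Genes that make and trim histone mRNAs were also followed. Of 19 tested genes for histone mRNA transcription, 3′ end processing and decay, 0 passed the threshold in limma. Over all genes tested, 0.0105% passed as higher and 0% as lower. The median log2 fold change of the 19 was 2.10, and -0.16 without IgG replicate 1. At an unadjusted p under 0.05, 2 were higher, against 2.74% of all genes tested. These were LSM10, a protein of the U7 particle, and SNRPB, a shared Sm protein, both named after their values were seen. LSM10 stood at 290.0 and 199.8 CPM in the anti-PHGDH libraries, against 0 and 182 CPM in the IgG libraries. SNRPB stood at 723 and 722 CPM in the anti-PHGDH libraries, against 1.55 and 686 CPM in the IgG libraries. Both rest on IgG replicate 1, without which the log2 fold changes were 0.40 (LSM10) and 0.07 (SNRPB). In that library 14 of the 23 genes of this list were at 0, while 4 were highest there. SLBP, the stem-loop binding protein, stood at 68.9 and 73.2 CPM in the anti-PHGDH libraries, against 830.3 and 81.7 CPM in the IgG libraries. The mRNA of SLBP was thus highest in the control library in which histone genes other than H4C3 were nearly absent, and the other 3 libraries lay close together. SNRPG, a shared Sm protein of spliceosomal and U7 particles and the highest of this list, stood at 418 and 1639 CPM in the anti-PHGDH libraries, against 375 and 1963 CPM in the IgG libraries.

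Histone variant genes, most of which are expressed outside replication from polyadenylated mRNAs, were recovered with both antibodies. H2AX, which is among them, also gives a stem-loop mRNA. Of 11 such genes, all 11 were above 0 in both anti-PHGDH libraries and in IgG replicate 2, and 6 in IgG replicate 1. H2AZ1, which encodes H2A.Z, stood at 1635 and 2752 CPM in the anti-PHGDH libraries, against 4364 and 4158 CPM in the IgG libraries. H3-3B stood at 1891 and 1985 CPM in the anti-PHGDH libraries, against 1488 and 2151 CPM in the IgG libraries. H3-3A, which encodes the same H3.3 protein, stood at 87.3 and 300.9 CPM in the anti-PHGDH libraries, against 547 and 432 CPM in the IgG libraries. H2AZ1 and H3-3B were thus within 3-fold over the 4 libraries, while H4C3 spanned 99.7-fold. The 2 IgG libraries differed little for H2AZ1 and H3-3A, with both above both anti-PHGDH libraries. Of the 10 variant genes tested, 0 passed the threshold in limma and 0 had an unadjusted p under 0.05. Over all genes tested, 0.0105% passed as higher and 0% as lower. At an unadjusted p under 0.05 in limma, these shares were 2.74% and 0%. Of the 10 estimates, 5 were above 0 and 5 below (median log2 fold change -0.21, and also -0.21 without IgG replicate 1).

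Histone chaperones and S phase genes gave no call either. Past the threshold, limma called 0.0105% of all genes tested higher and 0% lower. Counts of 0 thus show nothing particular to these lists. Of 8 chaperone genes tested, 0 passed the threshold and 0 had an unadjusted p under 0.05 in limma, with a median log2 fold change of 0.50, and of 0.047 without IgG replicate 1. RBBP7, a histone-binding subunit of several chromatin complexes, stood at 269 and 361 CPM in the anti-PHGDH libraries, against 1428 and 356 CPM in the IgG libraries. Of 14 S phase genes tested, 0 passed the threshold in limma and 1 had an unadjusted p under 0.05 (GINS2, named after its value was seen), with a median log2 fold change of 1.02, and of -0.46 without IgG replicate 1. GINS2, a subunit of the GINS complex of the replication fork, stood at 367 and 287 CPM in the anti-PHGDH libraries, against 0 and 252 CPM in the IgG libraries. It rests on the 0 in IgG replicate 1, without which its log2 fold change was 0.36. RRM1, a subunit of ribonucleotide reductase, stood at 50.8 and 76.5 CPM in the anti-PHGDH libraries, against 1194 and 94.3 CPM in the IgG libraries. Both RBBP7 and RRM1 were highest in IgG replicate 1, the library in which H4C3 was lowest, but the lists did not move one way there. Of the 9 chaperone genes above 0 in any library, 4 were highest and 5 lowest in IgG replicate 1, with ASF1A, CHAF1A and HIRA at 0. Of the 16 S phase genes, 6 were highest and 8 lowest there, and 7 were at 0 (MCM2, TYMS, CCNE1, CCNE2, CDC6, GINS2 and CCNA2). Summed over the 16, IgG replicate 1 was at 3144 CPM, on 9 genes above 0 and with RRM1 alone at 1194 CPM, and the other libraries were at 1417 to 2093 CPM on 15 or 16 genes.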

How the data were processed

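For each library the authors deposited a table of CPM values, 1 per gene symbol. STAR 2.5.4b, featureCounts and hg38 are named per the submitters' processing notes. The annotation, the use of strand, the treatment of duplicate and multi-mapped reads and the primer of cDNA synthesis are not given in the sources used here. Within a library the CPM were whole multiples of 1 read, which gave the depth, and a value was called whole within 1.5 times the rounding of the CPM. At least 99.98% of values above 0 were whole in each library.

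Groups and replicate numbers came from the sample titles. limma 3.58.1 in R 4.3.3 was run two-sided, without covariates, on log2(CPM + 1) values. Its variance followed an intensity trend, and genes had to reach 5 CPM in 2 or more libraries. In the fit of all 4 libraries the variance of each gene was taken from the trend alone, with no weight on the gene's own spread. Count models, edgeR 4.0.16 (quasi-likelihood) and DESeq2 1.42.0, were run on the recovered reads as alternatives. The procedure was also run on counts simulated from the mean level of each gene and the depth of each library. Apart from genes changed on purpose, the simulated libraries shared the same levels. None was set apart as IgG replicate 1 is, so the run does not show how the tests perform on these data.

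The members and the comparison lists were chosen with earlier results of these data known. Values were given for the 10 members with the highest mean CPM, the highest member of each library, any member past the threshold, the highest gene of each comparison list, and SLBP, H3-3A and H3-3B. Symbols were matched to RefSeq (GRCh38.p14) for positions and promoters, and all 66 members matched. Alternatives covered the pseudocount, the filter, scaling, the trend, the replicate block, the count models and leaving out each library.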

Additional observations from a re-analysis of the deposited data

How the results depend on the processing

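The count of histone genes past the threshold was 0 higher and 0 lower in every setting tried but 1: without IgG replicate 2 it was 8 higher, so leaving out 1 library gave 0 to 8. Over all genes, the count called higher (1) became 11 with 0.1 as the pseudocount, 3 when the filter was 1 CPM and 6 when it was dropped. It was 0 after median centring, without the trend, in edgeR quasi-likelihood without and with the replicate block and in DESeq2. With the replicate block in limma it was 4. Leaving out 1 library gave 0 to 7129 genes higher and 0 to 1032 lower, both highest without IgG replicate 2, and 99 higher and 3 lower without IgG replicate 1. The median log2 fold change of the histone genes (1.88) was -0.62 after median centring, -0.23 after quantile normalization, and -0.44 to 4.33 without 1 library. It was 0.39 in edgeR, 0.67 in DESeq2 and 3.02 in edgeR with the replicate block. With 5 and 0.1 as the pseudocount it was 0.90 and 3.34. Other filters changed the set of 8 genes: it was 0.73 over 34 genes with no filter and 1.24 over 15 with the filter at 1 CPM. The median over all genes tested (1.92) moved as well. It was -0.57 after median centring, -0.05 after quantile normalization, 0.81 in edgeR and 1.08 in DESeq2. With no filter it was 0.88, and 1.61 with the filter at 1 CPM. The log2 ratio of the summed histone CPM (-0.14) ran from -1.13 to 5.52 without 1 library. The values without IgG replicate 1 for the comparison lists, for the sum without H4C3 and for the sum without mitochondrial genes were added after seeing the data.

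Signs changed mostly with centring, quantile normalization and without IgG replicate 1. After median centring the log2 fold changes were -0.46 (H4C3), -0.58 (H2BC12), -0.25 (H2AC12), -0.67 (H1-2), -0.83 (H2AC17), -1.47 (H2AC20) and -1.30 (H1-3). After quantile normalization they were -0.25 (H2BC12), -0.21 (H1-2), -0.37 (H2AC17), -0.81 (H2AC20) and -0.73 (H1-3). edgeR gave -0.33 for H4C3 and -0.055 for H2AC20, and DESeq2 gave -0.12 for H4C3. Without IgG replicate 1 they were -1.28 (H4C3), -0.69 (H2BC12), -0.26 (H2AC12), -0.47 (H1-2), -0.89 (H2AC20) and -0.41 (H1-3). Without IgG replicate 2 the 8 genes ran from 2.80 (H1-3) through 2.94 (H2AC20), 3.32 (H2AC17), 4.14 (H1-2), 4.53 (H2BC12), 4.75 (H2AC12) and 5.35 (H4C3) to 5.54 (H1-4). The median of the tested genes is 0 in IgG replicate 1, where 61.9% are at 0, so centring lowers the other 3 libraries against it. The cause of the other changes was not tested. The replicate block changed no call on a histone gene. Across the genes tested, the deviations of the libraries numbered 1 from their group means had r = 0.0058. With 61.9% of these genes at 0 in IgG replicate 1, this value cannot decide whether libraries of the same number belong together. The numbers come from the titles and are not taken to pair the libraries. Most histone genes rest on under 10 reads per library, which limits any comparison of single genes.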
